A study of Caenorhabditis elegans with 32 samples.

Results

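The comparison set parental (P0) wild-type worms labelled hypoxia against P0 wild-type worms labelled normoxia, in whole Caenorhabditis elegans. It was taken by genotype, generation and treatment label and comprised 4 of the 32 small RNA libraries of the series, 2 per group. The hypoxia group was WT animals that, per the labels' protocols, were put at 0.1% oxygen for 16 h at 20 °C as L4 larvae and then brought back to ambient oxygen. The normoxia group was WT animals with the normoxia label. The time between the exposure and RNA isolation was not given in the sources used here. The nearest experiment in the series was the same pair of groups in hrde-1 mutants at P0 (4 libraries), whose allele the labels do not name. The WT normoxia libraries of the descendant generations F1 to F3 (n = 6) served as a second set of WT worms under normal oxygen. The study followed WT and hrde-1 worms from P0 to F3 to ask which small RNAs change after hypoxia and persist in descendants.

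The small RNA classes were counted in separate tables. 22G-RNAs are short antisense RNAs that begin with guanosine, are made on target transcripts by RNA-dependent RNA polymerases and guide worm-specific Argonautes such as CSR-1 and HRDE-1 in the germline, so that a 22G count on a gene reports small RNA against that gene and not its messenger RNA. MicroRNAs (miRNAs) are cut from hairpin precursors and repress messages through a short seed. piRNAs bind the Argonaute PRG-1 and direct 22G-RNA synthesis in the germline, and snoRNAs guide chemical modification of ribosomal RNA in the nucleolus. RNA was treated with the pyrophosphohydrolase RppH (500 ng, 37 °C, 30 min), which lets triphosphorylated 22G-RNAs enter a ligation library. In whole worms, fewer cells of a type and less RNA per cell cannot be told apart.

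The 4 tables held 3288760 and 3407601 counts in the hypoxia libraries, against 6562482 and 7127495 in the normoxia libraries. 22G-RNA took 43.2% and 41.1% of these counts under hypoxia, against 9.27% and 6.15% under normoxia. The means were 42.2% ± 1.48 and 7.71% ± 2.21 (SD, n = 2 each), a difference of 34.5 percentage points. miRNA held 44.6% ± 1.89 under hypoxia and 81.1% ± 1.30 under normoxia. piRNA held 7.63% ± 0.204 under hypoxia and 9.55% ± 1.16 under normoxia, and snoRNA held 5.55% ± 0.208 under hypoxia and 1.61% ± 0.246 under normoxia. The 2 groups did not overlap in any of the 4 classes, and the two-sided exact permutation p of 0.333 is the smallest that 2 against 2 libraries allow.

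The normoxia pair stood apart from the rest of the series. In the other 30 libraries 22G-RNA ranged from 14.9% to 45.9% and miRNA from 42.0% to 67.0%. The 6 WT normoxia libraries of F1 to F3 held 34.8% ± 1.48 22G-RNA and 54.5% ± 2.1 miRNA (SD, n = 6). Set against these, P0 hypoxia differed by 7.41 points in 22G-RNA and by -9.87 points in miRNA. In P0 hrde-1, 22G-RNA held 45.4% under hypoxia and 38.5% under normoxia (means of 2 libraries). Whether the P0 WT normoxia shares reflect the animals or the preparation of those 2 libraries cannot be told apart, because no other P0 WT normoxia library was analysed. All values below are therefore scaled within a class, as CPM (counts scaled to a common total of that class after TMM scaling), and each is read against the F1 to F3 WT normoxia range where one is given.

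**Figure D1:**
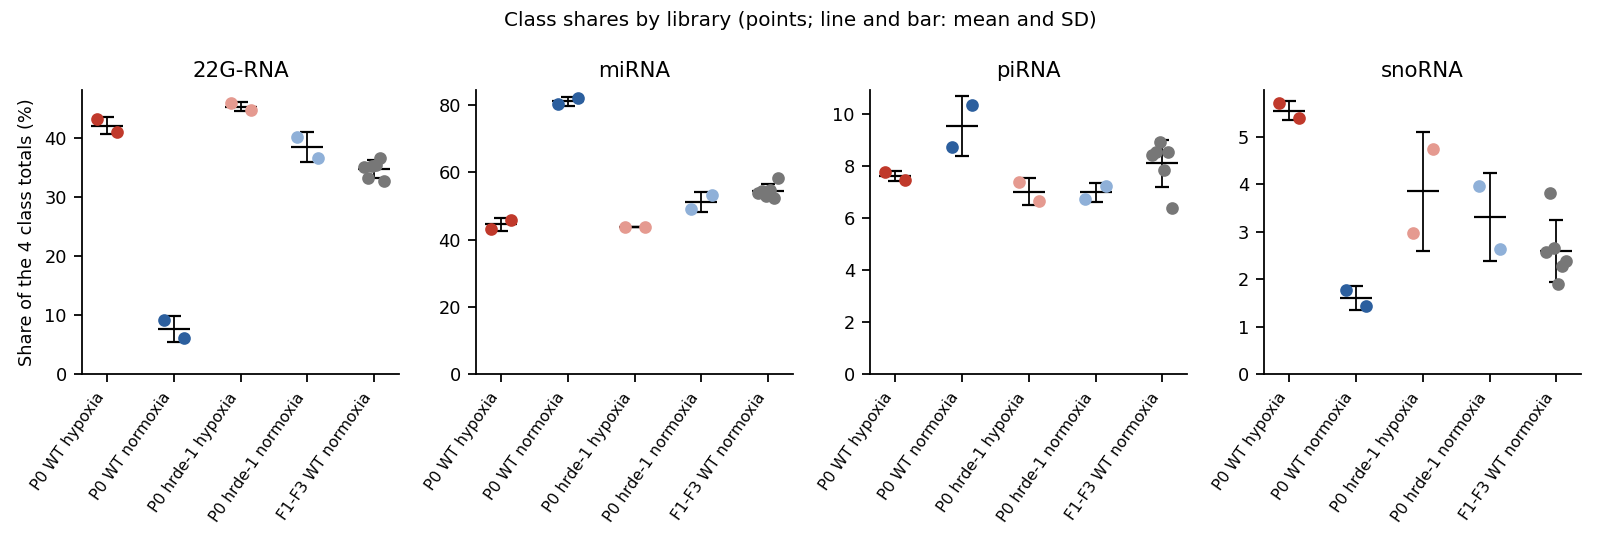
Percentage of a library's counts over the 4 tables that each class held (y axis) for P0 WT, P0 hrde-1 and F1 to F3 WT normoxia libraries (x axis); points are libraries, the line and bar are the mean and SD. The P0 WT normoxia libraries, at 9.27% and 6.15% 22G-RNA, lie below every other library shown.

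Within the 22G class, the hypoxia libraries spread their counts over more genes. At an equal depth of 438436 counts, 11302 and 11361 genes had 22G-RNA under hypoxia, against 10062 and 10260 under normoxia. The 10 most abundant genes held 7.73% and 7.78% of the class under hypoxia, against 13.4% and 14.3% under normoxia, where F1 to F3 WT normoxia ranged from 8.56% to 9.78%. The most abundant genes that together held 50% of the counts numbered 305 and 299 under hypoxia and 193 and 196 under normoxia. In this measure it was the hypoxia pair that lay outside the F1 to F3 range of 178 to 218.

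The leading loci differed in order. The long intergenic RNA linc-22 ranked first in all 4 libraries, with 1.101% and 1.123% of the class under hypoxia, against 5.44% and 4.91% under normoxia (F1 to F3 range 1.16% to 1.998%). Second under normoxia was F10C2.11, a non-coding RNA gene, with 2.17% and 3.63%, which ranked 112 and 83 under hypoxia with 0.129% and 0.154%. linc-29 ranked 6 and 6 under hypoxia, against 23 and 25 under normoxia. The 10 leading genes were the same in both hypoxia libraries, 8 were shared by the normoxia pair, and 5 or 6 were shared across the groups.

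By annotation, long intergenic RNA loci took 3.69% and 3.69% of 22G counts under hypoxia, against 8.70% and 8.50% under normoxia. Non-coding RNA genes took 2.37% and 2.28%, against 5.34% and 6.76%. Protein-coding genes took 78.8% and 79.1% under hypoxia and 70.8% and 70.3% under normoxia. Pseudogenes held nearly equal shares, 13.6% and 13.8% against 13.8% and 13.8%. For protein-coding, long intergenic and other non-coding loci both normoxia libraries lay outside the F1 to F3 WT normoxia ranges (74.5% to 76.6%, 3.96% to 5.18% and 2.71% to 2.98%). The hypoxia libraries lay outside them too, on the opposite side.

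Part of this composition followed miRNA genes. The 38 annotated non-coding RNA genes that overlap a miRNA gene held 0.280% and 0.320% of 22G counts under hypoxia, against 2.85% and 4.404% under normoxia. The other 7725 non-coding RNA genes held 2.09% and 1.96%, against 2.49% and 2.36%. The excess of non-coding RNA counts in the normoxia libraries thus lay mostly in the genes over miRNA loci. This comparison was made after the values were seen, and the strand setting of the counting was not given in the sources used here, which leaves no way to separate reads of a miRNA from reads of a gene on the opposite strand.

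With edgeR's quasi-likelihood test and Benjamini-Hochberg adjustment, 71 of 10121 genes passed in the 22G class (0.702%), 17 higher under hypoxia (0.168%) and 54 lower (0.534%). Without normoxia 2 no gene was called higher (0) and 33 were called lower, so that each of the 17 rises needs that library. The median log2 fold change of all tested genes was 0.05. The 2 groups did not overlap for 49.8% of genes. Calls were unevenly spread over annotation types. Of 61 long intergenic RNA loci 7 fell and none rose, of 253 non-coding RNA genes 11 fell, of 556 pseudogenes 11 fell, and of 9039 protein-coding genes 16 rose and 22 fell. Of 87 tested genes that are or overlap a miRNA gene 9 fell, against 45 of the other 10034, where the 17 rises also lay.

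Among the falls were 5 non-coding RNA genes, each opposite a miRNA gene and including the 2 largest falls of the class, T09B4.14 and F10C2.11 (build WBcel235, coordinates of the gene model). T09B4.14 (I:6172671-6172796, plus strand, over mir-1 on the minus strand) had 17.1 and 14.6 CPM under hypoxia, against 336.5 and 587.1 CPM under normoxia, a log2 fold change of -4.85 ± 0.47 (SE, adjusted p = 4.49e-07). F10C2.11 (V:12038653-12039151, plus strand, over mir-87) had 1012 and 1219 CPM, against 20320 and 33000 CPM (-4.58 ± 0.56, adjusted p = 9.35e-05). K01F9.7 (III:8873960-8874078, over mir-90) had 183.9 and 221.2 CPM, against 1998 and 1929 CPM (-3.28 ± 0.38, adjusted p = 1.28e-05). At all 3 genes the groups did not overlap, and both normoxia libraries were higher. F16A11.6 (I:9379946-9380095, over mir-71) had 175.7 and 216.7 CPM under hypoxia, against 1601 and 1641 CPM under normoxia (-3.05 ± 0.41, adjusted p = 9.11e-05). K01F9.6 (III:8865268-8865366, over mir-80) had 204.3 and 234.7 CPM, against 1205 and 1502 CPM (-2.62 ± 0.33, adjusted p = 3.34e-05). These 5 calls were kept whichever of the 4 libraries was left out.

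Set against the miRNA table, the same counts hardly moved. The F10C2.11 count was 88.8% and 89.7% of the summed mir-87 count under hypoxia and 92.0% and 91.1% under normoxia, and 88.6% to 95.7% in all 32 libraries of the series. The K01F9.7 count was 0.926% and 0.961% of the mir-90 count, against 0.931% and 0.874%. The K01F9.6 count was 0.377% and 0.400% of the mir-80 count under hypoxia, against 0.419% and 0.428% under normoxia. These ratios lay close together in the 2 groups, while the CPM of the same genes lay several fold apart. The F16A11.6 count was 0.366% and 0.406% of the mir-71 count, against 0.417% and 0.345%, and the T09B4.14 count was 0.0601% and 0.0461% of the mir-1 count, against 0.0519% and 0.0527%. For both the groups overlapped. In the 4 P0 WT libraries, counts at these 5 genes thus kept a near-constant ratio to the miRNA of the opposite strand. Over all 32 libraries the ratio varied more for K01F9.7 (0.748% to 1.15%) and K01F9.6 (0.315% to 0.481%). It ranged from 0.293% to 0.61% for F16A11.6 and from 0.033% to 0.142% for T09B4.14. Within the miRNA class the 5 miRNAs did not share a direction. miR-1-3p and miR-87-3p fell (-1.34 ± 0.23, edgeR adjusted p = 0.000176 and -1.03 ± 0.28, adjusted p = 0.00819), miR-80-3p rose (0.99 ± 0.19, adjusted p = 0.000324), and miR-71-5p and miR-90-3p did not pass (0.41 ± 0.24, adjusted p = 0.238 and 0.12 ± 0.24, adjusted p = 0.762).

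**Figure D2:**
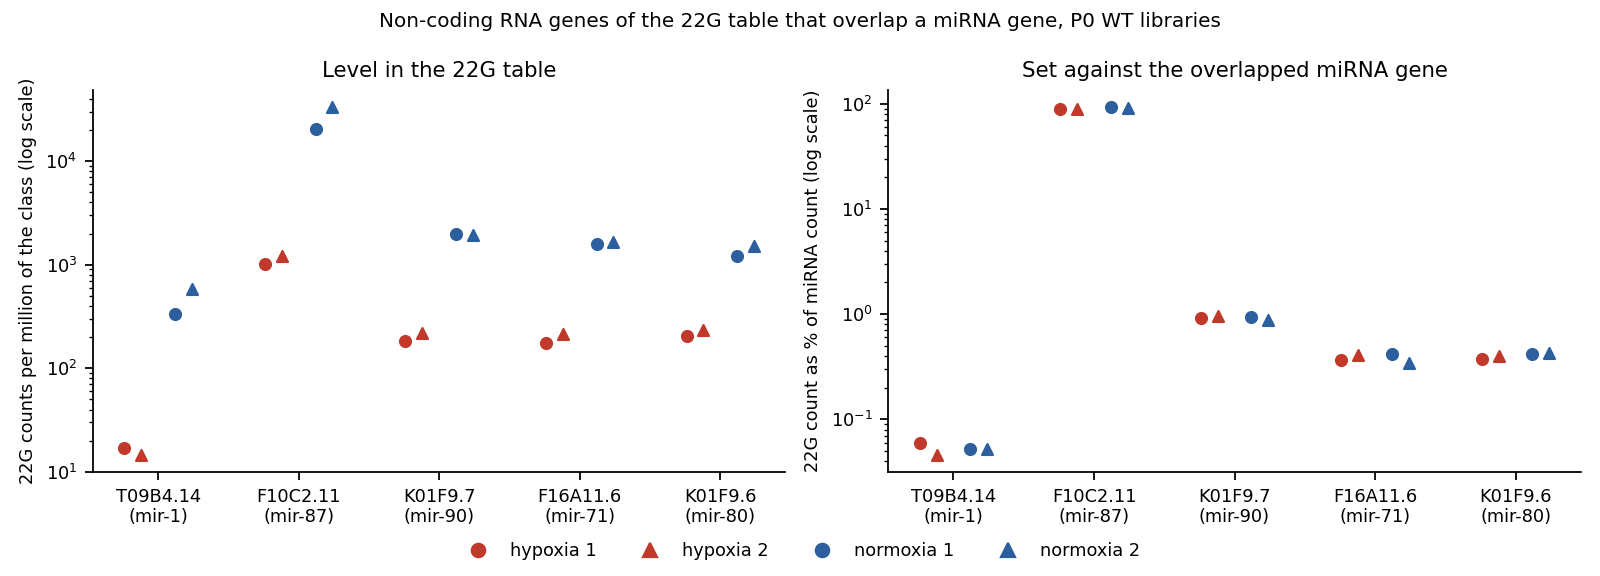
Left, 22G CPM (y axis, log scale) of the 5 non-coding RNA genes opposite a miRNA gene (x axis) in each P0 WT library; right, the same counts as a percentage of the summed counts of the overlapped miRNA gene (log scale). The groups lie several fold apart on the left, and on the right K01F9.6 reads 0.377% and 0.400% under hypoxia against 0.419% and 0.428% under normoxia.

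Some genes with no annotated miRNA gene also held a smaller share of the 22G class under hypoxia. linc-22 had 8626 and 8863 CPM under hypoxia, against 50890 and 44630 CPM under normoxia, a log2 fold change of -2.45 ± 0.26 (edgeR adjusted p = 2.17e-06). linc-24 had 159.7 and 172.2 CPM, against 974.2 and 1102 CPM (-2.64 ± 0.26, adjusted p = 4.49e-07). linc-11 had 1239 and 1201 CPM, against 4327 and 5470 CPM (-2.01 ± 0.25, adjusted p = 3.34e-05). At these 3 loci the hypoxia libraries lay close together and below both normoxia libraries. linc-12 fell too, with 88.7 and 78.8 CPM under hypoxia, against 564.0 and 674.2 CPM under normoxia (-2.88 ± 0.64, adjusted p = 0.0317), but did not pass when any of the 4 libraries was left out. Of 45 listed long intergenic RNA genes tested, 6 fell and none rose (0.534% and 0.168% of all genes), with a median of -0.47. Scaling to the total of the 4 tables in place of the class shifted the median over all genes to 2.70 (log2), and the list's median was then 2.22, or -0.48 relative to all genes.

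Targets of the ERGO-1 pathway, in which 26G-RNAs bound to the Argonaute ERGO-1 trigger secondary 22G-RNAs on recent duplications and non-coding loci, were lower in the class. Of 17 tested 6 fell and none rose (0.534% and 0.168% of all genes), with a median of -1.40. Among them were F55C9.3, F55C9.5 and F39F10.4, genes of duplicated families whose reads may be shared between copies. Also among the 6 falls was cel-mir-8199, which is annotated as a miRNA gene. F55C9.3 had 235.7 and 269.5 CPM under hypoxia, against 2766 and 3199 CPM under normoxia (-3.56 ± 0.57, edgeR adjusted p = 0.00161), and both hypoxia libraries lay below the F1 to F3 WT normoxia range of 453.6 to 1272 CPM. F39F10.4 had 170.7 and 136.2 CPM, against 929.7 and 1158 CPM (-2.76 ± 0.51, adjusted p = 0.00483), with an F1 to F3 range of 75.1 to 287.9 CPM. For F39F10.4 the normoxia libraries lay outside that range and the hypoxia libraries inside it. Y37E11B.2 had 1381 and 1362 CPM, against 3362 and 3854 CPM (-1.40, adjusted p = 0.000348). E01G4.5, with 1002 and 1019 CPM under hypoxia against 4993 and 4390 CPM under normoxia, did not pass (-2.22, adjusted p = 0.0638). Under the 4-class library size the ERGO-1 median turned to 1.31, which is -1.39 relative to all genes. In P0 hrde-1 the list's median was -0.725.

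Other falls were at single loci. T05E11.9, a non-coding RNA gene, had 321.1 and 279.1 CPM under hypoxia, against 3285 and 3004 CPM under normoxia (-3.39 ± 0.47, edgeR adjusted p = 0.000224), and of the hypoxia libraries 1 lay inside and 1 below the F1 to F3 WT normoxia range of 296.9 to 728.6 CPM. C01A2.1 had 416.9 and 413.6 CPM, against 3195 and 3749 CPM (-3.06 ± 0.45, adjusted p = 0.000448), with an F1 to F3 range of 264.1 to 737.1 CPM that held both hypoxia libraries. The unnamed pseudogene WBGene00014888 had 142.6 and 140.7 CPM, against 1246 and 1238 CPM (-3.13 ± 0.36, adjusted p = 7.25e-06), also with hypoxia inside the F1 to F3 range of 115.6 to 328.5 CPM. At these 3 loci both normoxia libraries lay above the F1 to F3 range. lido-8 fell as well (252.2 and 287.0 CPM against 1756 and 1724 CPM, -2.69 ± 0.24, adjusted p = 4.16e-07). T05G5.4 had 4.96 and 3.94 CPM under hypoxia, against 10.8 and 68.5 CPM under normoxia (adjusted p = 0.0269), and all 4 libraries lay below the F1 to F3 WT normoxia range of 131.7 to 212.0 CPM. Of the F-box genes, which code for substrate adaptors of ubiquitin ligases, 2 of 150 fell (0.534% of all genes). These were fbxa-52 (-1.82, adjusted p = 0.00942) and fbxa-61 (-2.02, adjusted p = 0.0106), and the list's median was 0.02.

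Among the rises were a pair of small heat shock genes on chromosome V, hsp-16.1 with its near-identical copy hsp-16.11, which code for stress-induced chaperones and may share reads. hsp-16.1 (V:9087293-9087782) had 139.3 and 122.1 CPM under hypoxia, against 32.3 and 18.7 CPM under normoxia, a log2 fold change of 2.33 ± 0.46 (edgeR adjusted p = 0.00694). hsp-16.11 (V:9090077-9090604) had 110.7 and 117.6 CPM, against 41.5 and 24.9 CPM (1.76 ± 0.42, adjusted p = 0.0457). For both genes the hypoxia libraries also lay above the F1 to F3 WT normoxia ranges, 28.1 to 49.9 CPM for hsp-16.1 and 33.4 to 46.7 CPM for hsp-16.11. Against those 6 libraries the log2 fold changes were 1.61 (adjusted p = 0.00159) and 1.42 (adjusted p = 0.00357). In P0 hrde-1 hsp-16.1 averaged 152.1 CPM under hypoxia and 123.6 CPM under normoxia, and hsp-16.11 averaged 148.4 and 121.4 CPM. The response of neither gene differed between WT and hrde-1 past the interaction test. The hrde-1 normoxia libraries lay far apart, at 189.9 and 57.2 CPM for hsp-16.1 and 180.7 and 62.1 CPM for hsp-16.11. hsp-16.1 passed in 2 of the 4 fits that left out a library (adjusted p up to 0.259) and hsp-16.11 in none of them (adjusted p up to 0.742). Of 18 heat shock genes tested these 2 rose and none fell (0.168% and 0.534% of all genes), with a median of 0.63. Outside the pair, hsp-110 had 154.8 and 158.1 CPM under hypoxia and 79.9 and 83.0 CPM under normoxia (0.94, adjusted p = 0.551), and hsp-90 had 84.3 and 71.5 CPM against 139.8 and 139.0 CPM (-0.84, adjusted p = 0.684).

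Germline genes rose at single members. csr-1, which codes for the Argonaute that binds 22G-RNAs against expressed germline genes, had 343.1 and 319.6 CPM under hypoxia, against 152.1 and 170.1 CPM under normoxia (1.04 ± 0.24, edgeR adjusted p = 0.0280). egg-5, a pseudophosphatase of the oocyte-to-embryo transition, had 214.2 and 241.4 CPM, against 87.6 and 89.2 CPM (1.37 ± 0.28, adjusted p = 0.00979). Both hypoxia libraries exceeded the F1 to F3 WT normoxia ranges, 159.2 to 224.4 CPM for csr-1 and 67.9 to 128.0 CPM for egg-5, and against those libraries the log2 fold changes were 0.80 (adjusted p = 0.00971) and 1.17 (adjusted p = 0.000869). Neither call was kept in any of the 4 fits that omitted a library (adjusted p as high as 0.409 for csr-1 and 0.187 for egg-5). ZK858.8 and W01A11.7, which were in none of the germline lists used here, showed the same order. ZK858.8 had 51.2 and 58.0 CPM against 12.3 and 8.30 CPM (2.37 ± 0.48, adjusted p = 0.00917). W01A11.7 had 153.1 and 111.4 CPM against 41.5 and 27.0 CPM (1.92 ± 0.37, adjusted p = 0.00483). Against the F1 to F3 libraries they differed by 2.86 (adjusted p = 1.90e-06) and 1.99 (adjusted p = 1.17e-05). Of 52 small RNA machinery genes csr-1 alone passed, with a list median of 0.02, and of 32 oogenic and maternal genes egg-5 alone, with a median of 0.29. Over all genes 0.702% passed.

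T12D8.5 rose by 0.89 (edgeR adjusted p = 0.0201) and was also higher against the F1 to F3 WT normoxia libraries (0.55, adjusted p = 0.0352). The other rises were not called higher against those libraries, and some took the opposite sign there. prx-11, a peroxisome biogenesis gene, had 59.5 and 36.6 CPM under hypoxia, against 12.3 and 2.08 CPM under normoxia (2.61 ± 0.44, edgeR adjusted p = 0.00135). The F1 to F3 WT normoxia libraries held 205.7 to 359.8 CPM, and against them the log2 fold change was -2.53 (adjusted p = 5.88e-07). The rise was kept in 3 of the 4 fits that omitted a library (adjusted p up to 0.0789). nhr-229, a nuclear hormone receptor gene, had 171.3 and 154.2 CPM, against 63.0 and 76.8 CPM (1.23 ± 0.29, adjusted p = 0.0365), and 869.6 to 1304 CPM in F1 to F3 WT normoxia (-2.65 against those, adjusted p = 4.17e-07). All 4 P0 WT libraries thus lay below the descendants for both genes. rpl-11.2, a ribosomal protein gene, had 135.5 and 99.6 CPM under hypoxia, against 38.4 and 18.7 CPM under normoxia (2.01 ± 0.39, adjusted p = 0.00694), and F1 to F3 WT normoxia held 164.6 to 258.7 CPM. cht-2, a chitinase gene, had 56.7 and 50.7 CPM, against 21.5 and 10.37 CPM (1.70 ± 0.34, adjusted p = 0.00766), and did not pass against the F1 to F3 libraries (0.44, adjusted p = 0.335). rrn-2.1, which encodes 5.8S ribosomal RNA, had 42 and 55 counts under hypoxia, against 2 and 0 under normoxia (adjusted p = 0.0313), too few under normoxia for a fold.

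**Figure D3:**
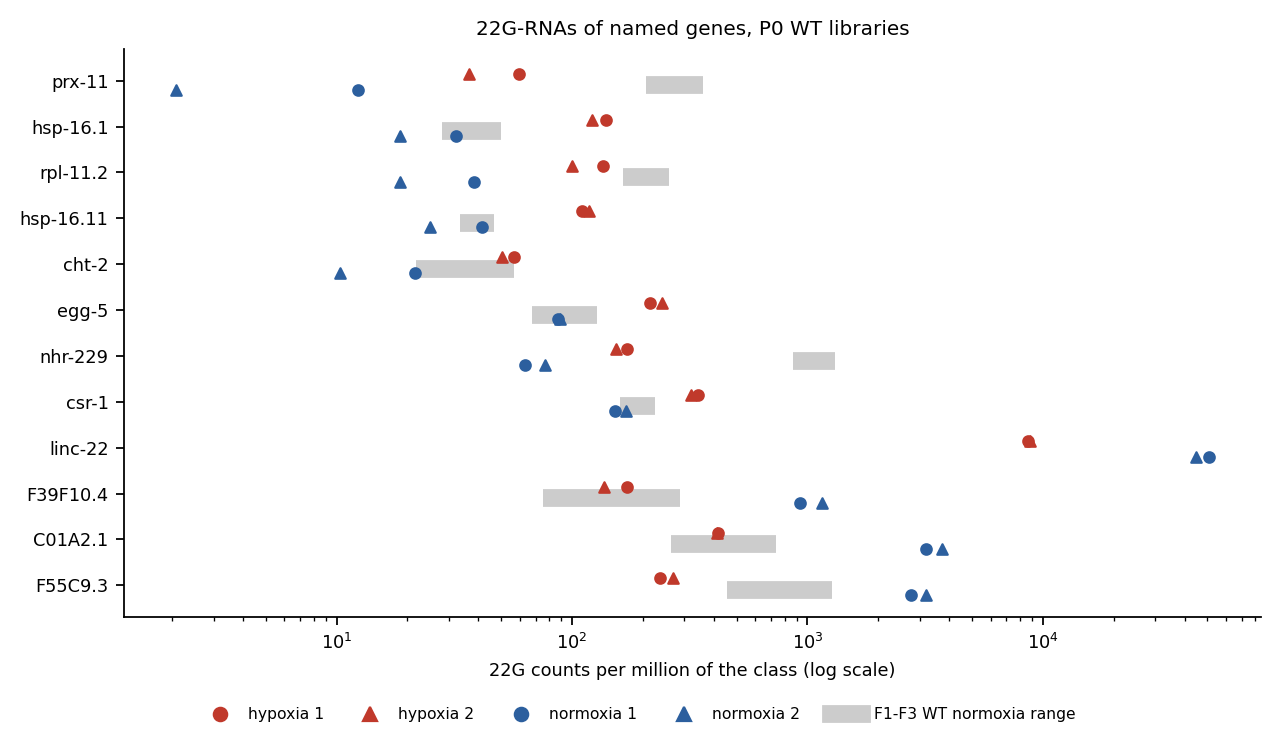
22G CPM (x axis, log scale) of 12 genes described in the text in the P0 WT libraries; red symbols are hypoxia and blue symbols normoxia, and the grey bar is the F1 to F3 WT normoxia range where it was computed for single genes (none for linc-22). hsp-16.1, at 139.3 and 122.1 CPM, and csr-1 and egg-5 lie right of both normoxia libraries and of the bar, while prx-11 and nhr-229 lie left of it in all 4 libraries.

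Several gene lists had few members or none past the test, which 0.702% of all genes passed. Of 56 histone genes none passed, and the median was 0.91. The groups did not overlap at 42 in the direction of higher hypoxia, against 0 in the other direction (29.2% and 20.6% of all genes). Some of these had very few normoxia counts, such as his-59 (1 and 0) and his-48 (0 and 0). Whether histone genes share reads was not tested, so the members may not be separate observations. his-41 had 62.8 and 67.0 CPM under hypoxia and 12.3 and 27.0 CPM under normoxia (1.76, edgeR adjusted p = 0.102). In P0 hrde-1 the histone median was 0.213. Of 16 hypoxia response genes none passed, with a median of 0.63. egl-9, the prolyl hydroxylase that marks HIF-1 for degradation, had 60.6 and 74.3 CPM under hypoxia against 35.3 and 33.2 CPM under normoxia, and ethe-1, a mitochondrial sulfur dioxygenase gene, had 35.8 and 37.1 CPM against 67.6 and 76.8 CPM. Of 45 sperm genes none passed, with a median of -0.515 that turned to 1.46 under the 4-class library size (-1.23 relative to all genes) and stood at 0.892 in P0 hrde-1. Of 47 respiratory chain genes and 5 vitellogenin genes none passed, with medians of -0.24 and -0.80. Of 71 ribosomal protein genes rpl-11.2 alone passed, with a median of -0.08.

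**Figure D4:**
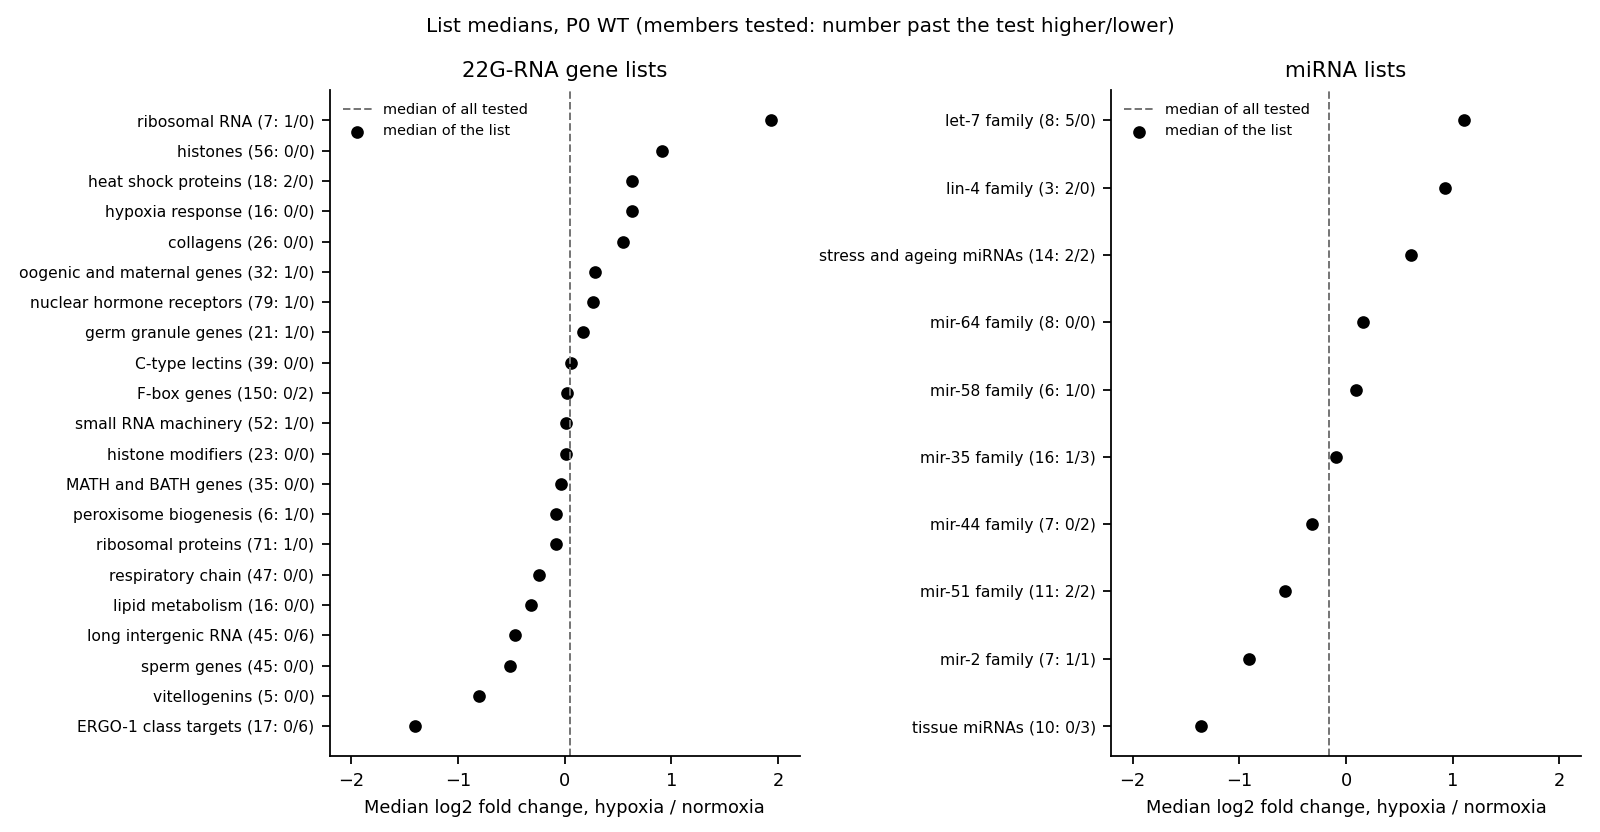
Median log2 fold change, hypoxia over normoxia (x axis), of each gene list in the 22G class (left) and miRNA class (right); labels give the members tested and the numbers past the test higher and lower, and the dashed line is the median of all tested features (0.05 and -0.16). Histones lie at 0.91 with no member past the test, and ERGO-1 class targets at -1.40 with 6 lower.

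Within the miRNA class 53 of 261 features passed (20.3%), 25 higher under hypoxia (9.58%) and 28 lower (10.7%), by edgeR's quasi-likelihood test with Benjamini-Hochberg adjustment, and the median of all tested was -0.16. With RLE scaling the split was 30 higher and 25 lower, and with the 4-class library size 8 higher and 66 lower. Against the F1 to F3 WT normoxia libraries, 4 of the 53 passed in the same direction and 1 in the opposite direction. Of the 53, 30 kept their sign there. The groups did not overlap for 79.7% of features. The order of the abundant miRNAs changed below the first place. miR-58a-3p ranked first in all 4 libraries, with 136800 and 134900 CPM under hypoxia and 177400 and 169600 CPM under normoxia (-0.35, adjusted p = 0.416). miR-1-3p, the conserved muscle miRNA, ranked 9 and 9 under hypoxia, against 2 and 2 under normoxia, while miR-48-5p ranked 5 and 5, against 18 and 21. The leading 10 shared 9 features within each group and 5 to 7 across groups.

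miRNAs that time larval development were higher. Of 8 let-7 family features tested 5 rose and none fell, with a median of 1.11 (9.58% and 10.7% of all miRNA features rose and fell). The miRNA lists count both arms of a precursor. The rises here include miR-48-3p and miR-241-3p beside their 5p arms. miR-48-5p had 48390 and 49840 CPM under hypoxia, against 17790 and 17940 CPM under normoxia (1.46 ± 0.19, edgeR adjusted p = 3.00e-06). let-7-5p had 9326 and 9385 CPM, against 3374 and 5115 CPM (1.14, adjusted p = 0.00249), and miR-241-5p had 1900 and 1924 CPM, against 578.9 and 771.3 CPM (1.5, adjusted p = 9.24e-05). For these 3 the hypoxia libraries lay close together and above both normoxia libraries. miR-84-5p had 7218 and 7273 CPM, against 4480 and 5739 CPM (0.50, adjusted p = 0.0972). lin-4-5p, the founding miRNA of the heterochronic pathway, had 5181 and 5588 CPM under hypoxia, against 2830 and 2832 CPM under normoxia (0.93, adjusted p = 0.00782), and miR-237-5p of the same family rose as well (1.03, adjusted p = 0.0130). Against F1 to F3 WT normoxia, miR-48-5p was not higher, at 65470 to 76980 CPM there (-0.52, adjusted p = 0.0564), and miR-241-5p was at 1841 to 3552 CPM (-0.39, adjusted p = 0.239). The let-7 median was 0.34 under the 4-class library size and 1.09 in P0 hrde-1.

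Of 10 tissue miRNA features tested 3 fell and none rose (10.7% and 9.58% of all miRNA features), with a median of -1.36. miR-1-3p had 34290 and 34580 CPM under hypoxia, against 78110 and 96810 CPM under normoxia (-1.34 ± 0.23, edgeR adjusted p = 0.000176), and the F1 to F3 WT normoxia range was 43060 to 64260 CPM, between the 2 P0 groups. miR-60-3p, enriched in the intestine, had 5450 and 6154 CPM, against 13890 and 24600 CPM (-1.73 ± 0.34, adjusted p = 0.000436), with an F1 to F3 range of 4461 to 11450 CPM. miR-124-3p, a miRNA of sensory neurons, had 145.7 and 106.2 CPM, against 264.4 and 410.3 CPM (-1.42, adjusted p = 0.0410). For all 3 both hypoxia libraries lay below both normoxia libraries. miR-243-3p, also of the intestine, had 350.7 and 329.0 CPM under hypoxia and 234.8 and 160.8 CPM under normoxia (0.78, adjusted p = 0.0799), and lsy-6-3p, which specifies a taste neuron, had 16.0 and 16.0 CPM against 38.0 and 48.9 CPM (adjusted p = 0.342). Each tissue miRNA named here was detected in all 4 libraries.

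The mir-35 family, abundant in oocytes and embryos, was mixed. Of 16 features tested 1 rose and 3 fell (9.58% and 10.7% of all miRNA features), with a median of -0.10. miR-35-3p had 61180 and 62970 CPM under hypoxia, against 69840 and 50750 CPM under normoxia, and the groups overlapped (0.04, edgeR adjusted p = 0.991). miR-42-3p had 2163 and 2019 CPM, against 7203 and 7872 CPM (-1.85 ± 0.37, adjusted p = 0.000566), and miR-39-3p had 8247 and 8713 CPM, against 18800 and 27080 CPM (-1.44, adjusted p = 0.00690). miR-41 split by arm. miR-41-5p had 232.9 and 216.7 CPM under hypoxia, against 87.7 and 63.4 CPM under normoxia (1.57, adjusted p = 0.00155), and miR-41-3p had 10.7 and 11.7 CPM, against 63.0 and 56.7 CPM (-2.42, adjusted p = 0.0275). Of 86 precursors with both arms tested 4 had both arms past the test, and miR-41 was the one whose arms took opposite signs. The 5p arm was also higher against F1 to F3 WT normoxia (1.61, adjusted p = 0.000261), and the call on miR-41-3p was lost whichever library was left out.

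Among miRNAs past the test with a mean of at least 50 CPM in the higher group, the largest rise was miR-253-3p. miR-253-3p had 746.6 and 765.5 CPM under hypoxia, against 143.3 and 92.6 CPM under normoxia (2.68 ± 0.31, edgeR adjusted p = 8.80e-07). It was also above the F1 to F3 WT normoxia range of 120.2 to 183.1 CPM (2.25 against those libraries, adjusted p = 1.69e-08). miR-235-3p had 9577 and 9850 CPM, against 3285 and 2161 CPM (1.84, adjusted p = 0.000176), but lay inside the F1 to F3 range of 7074 to 13410 CPM. miR-70-3p had 3760 and 3324 CPM, against 1196 and 1201 CPM (1.56, adjusted p = 0.000176), and was below the F1 to F3 range of 3966 to 7719 CPM (-0.81, adjusted p = 0.0476). For miR-253-3p the hypoxia pair was thus the one outside other WT normoxia worms, and for miR-235-3p the normoxia pair. Among the falls, miR-62 had 149.7 and 144.3 CPM under hypoxia, against 843.2 and 1003 CPM under normoxia (-2.65 ± 0.49, adjusted p = 0.000238), and miR-255-3p had 15.3 and 20.3 CPM, against 137.2 and 179.1 CPM (-3.15, adjusted p = 0.000324).

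Among miRNAs tied to stress and ageing, 2 of 14 features rose and 2 fell, with a median of 0.61. Over all miRNA features 9.58% rose and 10.7% fell. miR-34-3p had 39.9 and 23.3 CPM under hypoxia, against 192.8 and 478.2 CPM under normoxia (-3.41 ± 1.05, edgeR adjusted p = 0.0252), and the 2 normoxia libraries differed widely. Both lay above the F1 to F3 WT normoxia range of 38.3 to 59.4 CPM. The more abundant arm, miR-34-5p, had 785.2 and 760.6 CPM under hypoxia and 532.0 and 685.9 CPM under normoxia. It did not pass (0.34, adjusted p = 0.549). miR-233-3p had 1132 and 1060 CPM, against 2630 and 2239 CPM (-1.15, adjusted p = 0.000849). miR-246-3p had 1779 and 1955 CPM, against 937.6 and 1046 CPM (0.91, adjusted p = 0.00932), and miR-80-3p had 65040 and 63600 CPM, against 34480 and 30190 CPM (0.99 ± 0.19, adjusted p = 0.000324). For miR-80-3p the F1 to F3 WT normoxia range of 54370 to 71210 CPM held both hypoxia libraries, and both normoxia libraries lay below it. miR-71-5p, a long-lifespan miRNA, did not pass, with 57990 and 58110 CPM under hypoxia and 46290 and 41320 CPM under normoxia. In the mir-51 family 2 of 11 features rose and 2 fell. The rises were the 2 arms of miR-51, miR-51-5p (31630 and 29430 CPM against 17400 and 16660 CPM) and miR-51-3p. The falls were miR-54-3p (6697 and 7087 CPM against 10860 and 12890 CPM) and miR-55-3p.

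**Figure D5:**
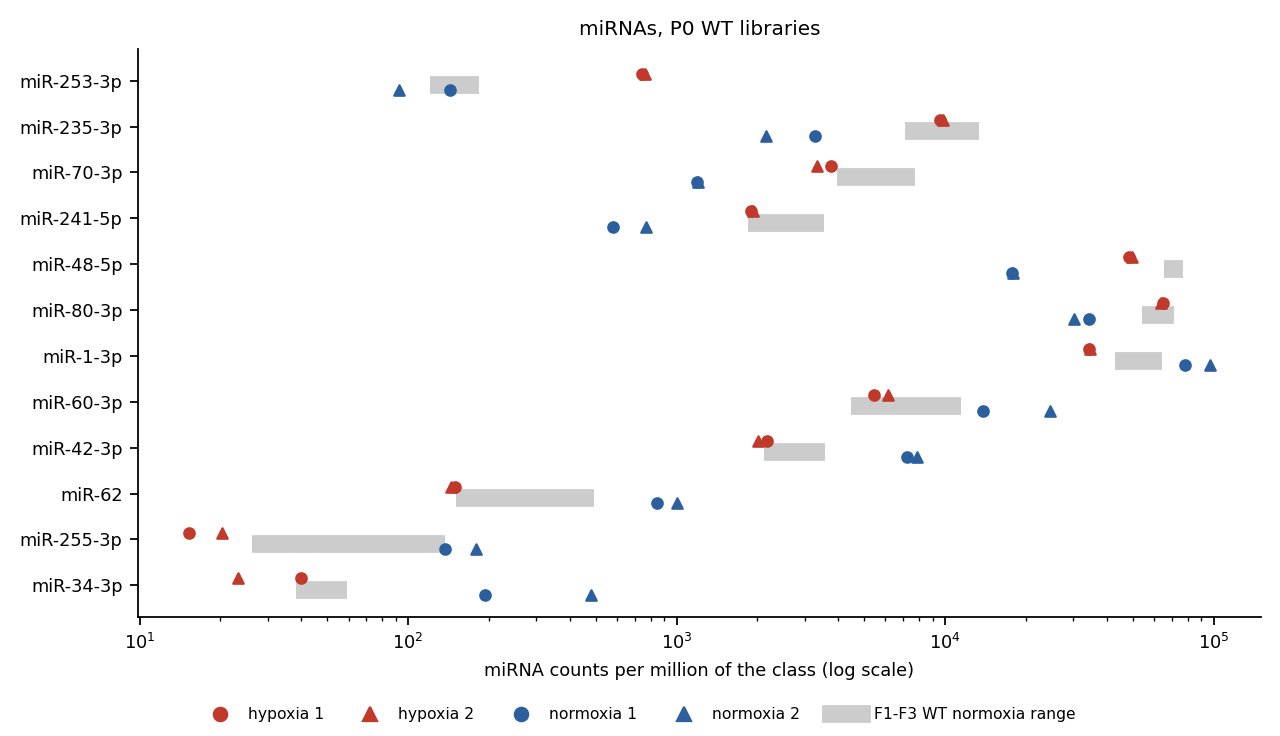
miRNA CPM (x axis, log scale) of 12 miRNAs in the P0 WT libraries; red symbols are hypoxia and blue symbols normoxia, and the grey bar is the F1 to F3 WT normoxia range. miR-253-3p, at 746.6 and 765.5 CPM under hypoxia, lies right of the bar, and miR-1-3p and miR-60-3p under normoxia lie right of theirs.

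Within the piRNA class 9 of 7978 features passed (0.113%), 3 higher (0.0376%) and 6 lower (0.0752%), with a median over all of -0.18. The groups did not overlap for 46.6% of features. piR-cel-15840 had 525.5 and 597.2 CPM under hypoxia, against 29.8 and 21.6 CPM under normoxia (4.45 ± 0.61, edgeR adjusted p = 0.000126), and F1 to F3 WT normoxia held 261.7 to 346.1 CPM. piR-cel-15879 had 1500 and 1355 CPM, against 250.1 and 160.2 CPM (2.80 ± 0.37, adjusted p = 4.50e-05). piR-cel-1507 had 433.4 and 459.4 CPM, against 2098 and 2348 CPM (-2.32 ± 0.37, adjusted p = 0.000655), ranking 584 and 525 under hypoxia and 39 and 24 under normoxia. These 3 calls were kept in each of the 4 fits with 1 library left out. piR-cel-16548 was the most abundant piRNA in all 4 libraries. piR-cel-7295 was listed at 0 in both hypoxia libraries, against 69 and 57 counts under normoxia, and no fold is given because the piRNA table holds no value between 0 and 5 in these libraries. The leading 100 piRNAs shared 86 features between the hypoxia libraries and 80 between the normoxia libraries, against 62 or 63 across groups.

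Within the snoRNA class 9 of 339 features passed (2.65%), 6 higher (1.77%) and 3 lower (0.885%), with a median of 0.05. The groups did not overlap for 68.4% of features. T26A8.6 had 64320 and 53480 CPM under hypoxia, against 11980 and 11100 CPM under normoxia (2.35 ± 0.43, edgeR adjusted p = 0.00150), ranking 2 and 3 under hypoxia and 27 and 29 under normoxia. It was also above the F1 to F3 WT normoxia range of 9744 to 30350 CPM (1.86, adjusted p = 0.000224), and in P0 hrde-1 it averaged 45520 CPM under hypoxia and 46340 CPM under normoxia. C08D8.3 had 24890 and 22080 CPM under hypoxia, against 8618 and 7787 CPM under normoxia (1.52, adjusted p = 0.0330), and C05H8.3 had 10040 and 9053 CPM, against 3841 and 2764 CPM (1.53, adjusted p = 0.0223). Both were also higher against F1 to F3 WT normoxia (1.32, adjusted p = 0.00497 and 1.02, adjusted p = 0.0189). ZK994.7 ranked first under normoxia with 82960 and 87850 CPM and ranked 11 and 6 under hypoxia with 25810 and 32220 CPM (-1.56, adjusted p = 0.00677). T25D10.11 had 1222 and 1225 CPM under hypoxia, against 3339 and 4844 CPM under normoxia (-1.74, adjusted p = 0.0205). None of the 9 snoRNA calls was kept in all 4 fits with 1 library left out, and T26A8.6 was kept in 3 of them.

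How far the P0 normoxia libraries differ from other WT normoxia worms within a class was described over all tested features. Both P0 normoxia libraries lay outside the F1 to F3 WT normoxia range for 34.9% of 22G genes, 46.4% of miRNAs, 2873 of 7978 piRNAs and 41.6% of snoRNAs. Both P0 hypoxia libraries lay outside it for 33.5% of 22G genes, 29.1% of miRNAs, 2299 of 7978 piRNAs and 27.4% of snoRNAs. The 2 P0 groups were about equally far from the descendants in the 22G class, and the normoxia pair was farther in the other 3 classes. Among the calls, both P0 normoxia libraries lay outside the range for 85.9% of 22G genes, 77.4% of miRNAs, 77.8% of piRNAs and 55.6% of snoRNAs. For both P0 hypoxia libraries these shares were 69.0%, 50.9%, 55.6% and 44.4%. Tested against these 6 libraries, P0 hypoxia passed for 4.09% of 22G genes, 4.25% of miRNAs, 0.29% of piRNAs and 10.7% of snoRNAs. Of the calls against P0 normoxia, 28 of 71 22G genes, 4 of 53 miRNAs, 2 of 9 piRNAs and 4 of 9 snoRNAs passed there in the same direction. Generation and oxygen differ together in that comparison and cannot be told apart.

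The P0 response of WT differed from that of hrde-1 in 6 of 10121 22G genes (0.0593%) by the interaction of edgeR's fit, and in 0 of the miRNA (0.0%), piRNA and snoRNA features, where 19, 577 and 24 had an unadjusted p below 0.05. In P0 hrde-1 itself 72 22G genes passed (0.711%), 31 miRNAs (11.9%), 8 piRNAs (0.1%) and 0 snoRNAs, the last with 8 below an unadjusted p of 0.05. prx-11 was at 223.5 CPM under hypoxia and 274.1 CPM under normoxia in hrde-1 (means of 2), and its response differed by 2.90 ± 0.53 (WT minus hrde-1, adjusted p = 0.0199). T28B8.1 had 4.41 and 8.44 CPM under hypoxia, against 55.3 and 74.7 CPM under normoxia in WT, and averaged 1310 and 1389 CPM in hrde-1 (-3.23 ± 0.52, adjusted p = 0.00788). The other 4 genes were T09B4.14, K01F9.6, cel-mir-5592-1 and cel-mir-5592-2, each of which is or overlaps a miRNA gene. In hrde-1 the K01F9.6 count was 0.383% and 0.387% of the mir-80 count under hypoxia and 0.376% and 0.396% under normoxia, against 0.377% to 0.428% in the 4 WT libraries. In fits that omitted WT hypoxia 1, WT normoxia 2 or hrde-1 normoxia 1 of P0, 0 genes passed.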

How the data were processed

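Small RNA libraries of whole worms were counted per feature in 4 class tables. The authors' deposited values were whole counts per feature, not normalized, except that the F2 WT normoxia libraries held partly fractional values, which were taken to be expected counts deposited by the authors and were rounded. FastQC, cutadapt 2.5, featureCounts and edgeR were used, per the submitters' processing notes. For the aligner, the genome build and the strand setting, details are not given in the sources used here. Reads of a gene and of its antisense partner therefore may not be separable. The overlapping cel-mir-5592-1 and cel-mir-5592-2, on opposite strands, held different counts (12.5% and 7.71% of the summed mir-5592 count in P0 WT hypoxia 1). How the counting separated them was not tested. Of 46932 22G feature identifiers 46919 matched WBcel235 genes, and 200 gene names shared by several genes were replaced by RefSeq symbols of the same assembly.

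Tests used edgeR 4.0.16's quasi-likelihood F test on the counts (R 4.3.3, limma 3.58.1), with TMM scaling within a class, filterByExpr at a minimum count of 10, 16 group means over 32 libraries and Benjamini-Hochberg adjustment at 0.05 over all features tested. Per P0 WT library, the 22G table held 438436 to 1422185 counts, the miRNA table had 1423504 to 5848199, the piRNA table had 255012 to 738793 and the snoRNA table had 102067 to 187447. Outside the F2 WT normoxia libraries, no miRNA or piRNA value lay between 0 and 5. Nothing in the labels says that replicates came from separate cultures. The p-values then measure only the spread between the libraries, which may be technical. Genes were named by size of change among those past the test with non-overlapping groups and a mean of at least 5 CPM (22G) or 50 CPM (other classes) in the higher group, up to 17, 12, 8 and 8 per direction, with the most abundant features and list members. Fallers over miRNA genes, linc-11, linc-22, linc-24 and lido-8 were described after their values were seen. Members and lists were chosen with earlier results of these data known. Alternatives were RLE scaling, the 4-class library size, no filter, fewer libraries in the fit, DESeq2 1.42.0, a replicate block, leaving out each library, and the F1 to F3 WT normoxia libraries as the control.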

Additional observations from a re-analysis of the deposited data

Results flagged for a closer look

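The responses of 6 22G genes were singled out because the P0 hypoxia response differed between WT and hrde-1 by the interaction test (edgeR, adjusted p below the threshold over 10121 genes, WT minus hrde-1). prx-11 differed by 2.90, T09B4.14 by -3.75, T28B8.1 by -3.23, K01F9.6 by -2.66, cel-mir-5592-1 by -2.70 and cel-mir-5592-2 by -3.01. Of these, T09B4.14 overlaps mir-1, K01F9.6 overlaps mir-80, and the 2 cel-mir-5592 genes overlap each other on opposite strands. The cel-mir-5592-2 count was 7.71% and 9.14% of the summed mir-5592 count in the miRNA table under hypoxia and 8.99% and 7.86% under normoxia in WT, and the groups overlapped. The cel-mir-5592-1 count was 12.5% and 12.8% of it under hypoxia, against 6.97% and 8.05% under normoxia, and the groups did not overlap. All 6 calls were lost without P0 WT normoxia 2, without P0 WT hypoxia 1 or without P0 hrde-1 normoxia 1.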

How the results depend on the processing

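Counts of calls against P0 WT normoxia were 71, 53, 9 and 9 for 22G-RNA, miRNA, piRNA and snoRNA. With the 4-class library size 22G gave 7496 (7494 higher), snoRNA 255, and the WT minus hrde-1 response 3919 for 22G, 1 for miRNA, 1 for piRNA and 87 for snoRNA. Without a filter 22G gave 163 and piRNA 21. With the 4 compared libraries alone the counts were 785, 141, 145 and 95, and without the F3 libraries 207, 83, 190 and 19, in the order above. DESeq2 gave 124 for 22G, 60 for piRNA and 21 for snoRNA, and for miRNA 41 higher and 30 lower. With F1 to F3 WT normoxia as the control the counts were 410, 11, 23 and 36, and the share differences were 7.41, -9.87, -0.485 and 2.95 points. RLE scaling gave 1 miRNA interaction. The replicate block gave 76 for 22G, 5 for snoRNA and 1 miRNA interaction. Deviations of same-numbered libraries correlated at 0.0332, 0.0171, -1.45e-06 and 0.109, in the order above. Whether such libraries shared a culture or batch is not given in the labels, and these values cannot decide it.

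Leaving out 1 library gave 27 to 51 calls for 22G (27 without hypoxia 1, 33 without hypoxia 2, and 33 without normoxia 2, of which 0 were higher), 28 to 40 miRNA calls, 9 to 17 piRNA calls and 1 to 8 snoRNA calls, and 0 to 7, 0 to 3, 4 to 15 and 0 to 4 interactions. Share differences were 32.9 to 36.05, -37.8 to -35.2, -2.74 to -1.103 and 3.77 to 4.12 points. Of the named calls, 10 of 37 22G, 19 of 26 miRNA, 3 of 9 piRNA and 0 of 9 snoRNA features passed in all 4 such fits.

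With F1 to F3 WT normoxia as the control these log2 fold changes turned sign: rrn-2.1 -0.42, prx-11 -2.53, rpl-11.2 -0.81, nhr-229 -2.65, T28B8.1 0.24, F39F10.4 0.005, miR-48-3p -0.46, miR-235-3p -0.10, miR-788-3p -0.57, miR-70-3p -0.81, miR-795-5p -0.72, miR-241-5p -0.39, miR-48-5p -0.52, miR-786-3p -0.015, miR-2-3p 0.041, miR-80-3p -0.072, piR-cel-15748 -0.26, piR-cel-8794 0.34, piR-cel-3417 0.39, piR-cel-5020 0.74, R07G3.16 -0.24, Y51H4A.940 -0.12 and D1086.14 -0.015. With the 4-class library size K01F9.6 was 0.09, cel-mir-5592-1 0.88, cel-mir-5592-2 0.14, miR-66-5p -0.67, T25D10.11 0.014, ZK994.7 0.17 and H06I04.8 1.16. The cause was not tested. Depth limits the 22G values most under normoxia, where the class held 608364 and 438436 counts.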
